A study of Mus musculus with 3 samples.

Results

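Chromosome 11 of the mouse carried 449 regions bound by HA-tagged NUR77 in at least 2 of 3 replicates, out of 6865 such regions in the whole series. A region is a stretch of overlapping or abutting peaks from the 3 replicate peak lists, and a member is a region on chromosome 11 with peaks from 2 or more of those lists. Before the threshold on replicates was applied, chromosome 11 had 855 regions, of which 52.5% became members. The same threshold kept 54.8% of the regions on the other 18 autosomes. The choice of members thus used the overlap between lists, so their support is given as a description and not as a result of a test.

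The single group consisted of C2C12 cells, a mouse myoblast line, stably carrying pINDUCER20b-HA-NUR77 and given doxycycline at 1 µg/mL for 18 h from 24 h after seeding. Chromatin bound by the tagged receptor was pulled down with an anti-HA antibody after crosslinking with disuccinimidyl glutarate and formaldehyde, and was sequenced (ChIP-seq) in 3 replicates. All 3 replicates thus carried the induced transgene. The tagged receptor came from that transgene and may have been overexpressed, though peak lists hold no level of it. The labels do not say whether the line was 1 clone, and uninduced cells or an input library were not analysed here. The label C2C12 could not be checked against marker genes, since peak lists hold no expression values. Nothing in the labels says whether the replicates were grown on separate days, so the spread between lists may be partly technical.

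NUR77, the product of Nr4a1, is an orphan nuclear receptor whose gene is switched on rapidly by many stimuli. It binds DNA as a monomer at the NBRE element and as a dimer at the NurRE element, and in skeletal muscle it is known for its part in glucose use and oxidative metabolism. Mouse chromosomes have their centromere at the low-numbered end, and chromosome 11 is among the gene-rich ones: it holds, for example, the cluster of skeletal muscle myosin heavy chain genes. Peak positions are in the mm9 build. The gene and promoter tables at hand are for GRCm38, so no region was assigned to a gene and no sequence was read at a peak.

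On chromosome 11 there were 274, 523 and 731 peaks in the lists of replicates 1, 2 and 3, out of 4468, 7756 and 10817 peaks in all. Chromosome 11 thus made up 6.13%, 6.74% and 6.76% of the lists. It made up 4.65% of the length from the first to the last peak summed over all chromosomes, chromosome X included. Sequencing depth is not given in the sources used here. Median deposited scores on the chromosome were 111.79, 117.78 and 123.11, and the statistic behind the score is not stated. Scores from different lists may therefore not share a scale, and each peak was also ranked in its own list, with percentile 100 for the highest score.

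Peaks were denser on chromosome 11 than on the other autosomes in each of the 3 lists. There were 2.31, 4.41 and 6.17 peaks per Mb in replicates 1, 2 and 3, against 1.83, 3.15 and 4.38 on the other autosomes pooled. The relative density was 1.36 ± 0.08 (SD, n = 3 lists), and was lower in replicate 1 (1.27) than in replicates 2 (1.40) and 3 (1.41). A two-sided exact sign-flip permutation test of the log ratios over the 3 lists gave p = 0.25, which is the smallest value that 3 lists allow. Among members the density was 3.79 per Mb over a span of 118.5 Mb, against 2.79 per Mb on the other autosomes. Only chromosomes 10 and 15 had a higher density of such regions, at 4.63 and 3.88 per Mb. Chromosome 11 stood 4th among the 19 autosomes when a region had to be in all 3 lists, as it did when replicate 2 or replicate 3 was left out.

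**Figure D1:**
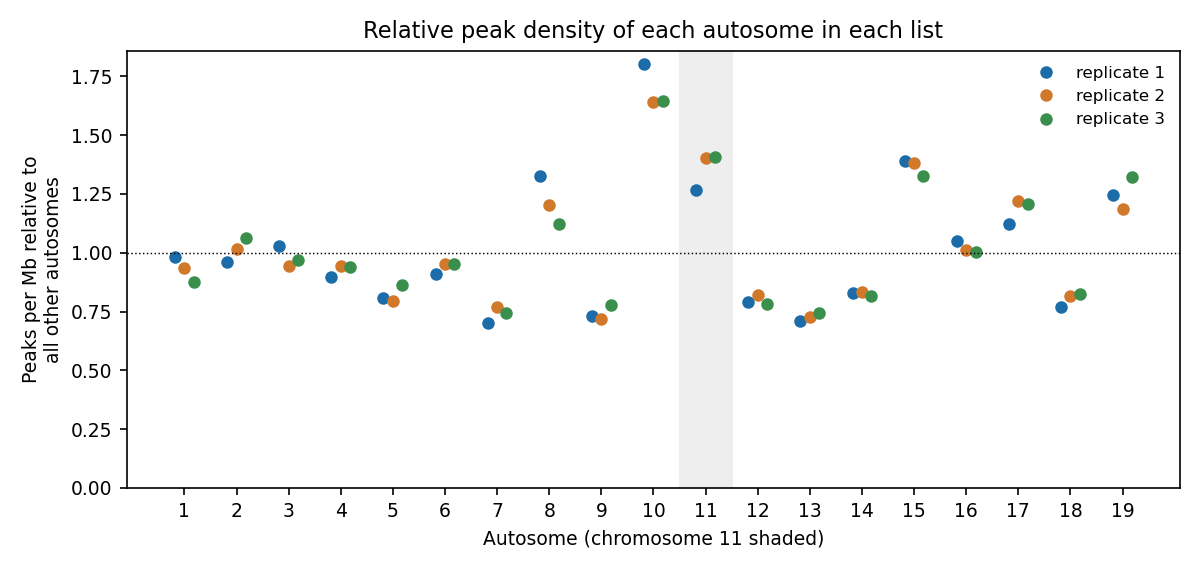
Peaks per Mb on each autosome divided by peaks per Mb on all other autosomes, 1 point per replicate list, with chromosome 11 shaded and the dotted line at 1. The chromosome 11 points lie at 1.27, 1.40 and 1.41, below those of chromosome 10 and close to those of chromosome 15.

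The members were unevenly spread along the chromosome, with most of the proximal part sparse and most of the distal part dense. Counted in bins of 5 Mb, the 23 complete bins held between 3 and 40 members, with a median of 15, and none was empty. With the incomplete first and last bins included, all 10 bins below 50 Mb held at most 15 members. In contrast, 11 of the 15 bins from 50 Mb onwards held 17 or more. The first bin held its 15 members from position 3147475, where the first peak began, and 9 of them lay from 4 to 5 Mb. The start of the chromosome was thus not sparse. The fullest bin ran from 75 to 80 Mb, with 40 members and with 20, 40 and 61 peaks in replicates 1, 2 and 3. It was followed by the bin from 115 to 120 Mb, with 35 members and 18, 43 and 65 peaks. The third was the bin from 100 to 105 Mb, with 32 members and 14, 37 and 59 peaks.

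Sparse bins also stood between these dense ones. The bins from 80 to 85 Mb and from 90 to 95 Mb held only 10 and 8 members, with 6 and 4 peaks of replicate 1. The emptiest bin lay from 35 to 40 Mb, with 3 members, all of them in all 3 lists. Replicates 1 and 2 had 3 peaks each there and replicate 3 had 4. The lists rose and fell together from bin to bin: across the 23 complete bins, which are not replicates, Pearson's r of peak counts was 0.86 between replicates 1 and 2, 0.88 between 1 and 3, and 0.95 between 2 and 3. The SD of the bin counts was 0.55 of their mean, against 0.37 to 0.85 on the other autosomes, of which 14 had a larger value. By the variance over the mean, chromosome 11 ranked 10th of the 19 autosomes, at 5.60 against a median of 5.53 on the others. The fullest bin on each of 5 other autosomes held more regions, up to 54 on chromosome 8. When replicate 2 or replicate 3 was left out, the fullest bin of chromosome 11 held 21 and 20 regions. With all lists but shifted bin borders, its fullest bin held 31, and no shifted count is given here for the other autosomes.

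**Figure D2:**
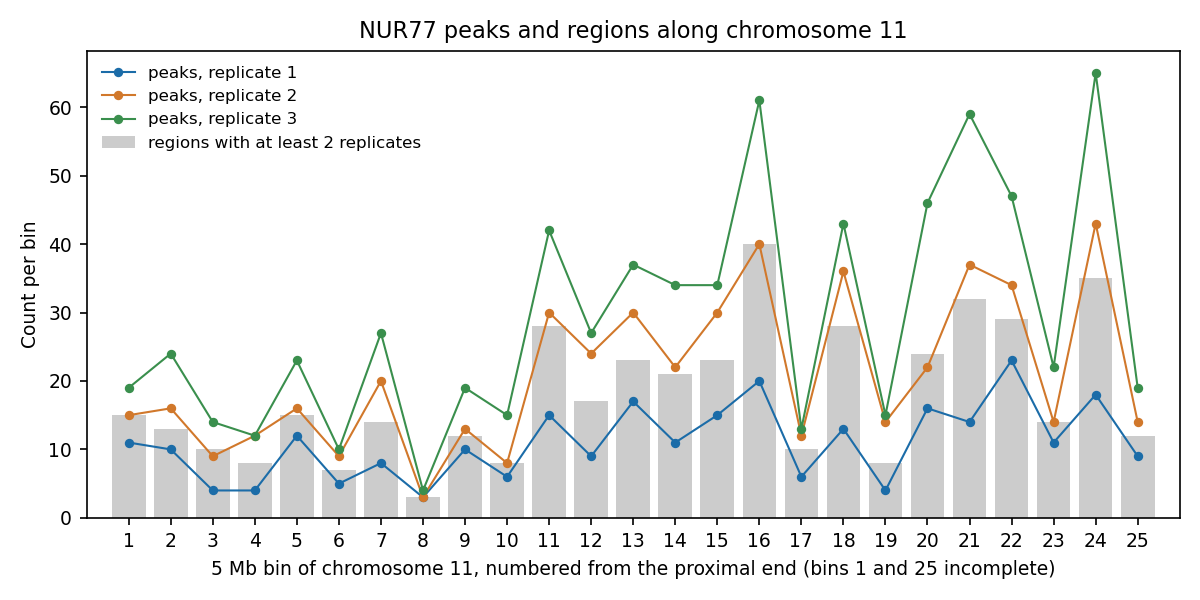
Peaks of each replicate list (coloured lines) and members (grey bars) in consecutive 5 Mb bins of chromosome 11, numbered from the centromeric end. The first and the last bin are incomplete. Bin 16 is the fullest with 40 members, bin 8 the emptiest with 3, and counts are mostly higher from bin 11 onwards in all 3 lists, with dips at bins 17 and 19.

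A border at 50 Mb, chosen after the bins were seen, separates 105 members on the proximal 46.9 Mb from 344 members on the distal 71.7 Mb. These are 2.24 and 4.80 members per Mb, a ratio of 2.14. In the single lists the ratio of distal to proximal peak density was 1.80, 2.17 and 2.21, or 2.06 ± 0.23 (SD, n = 3). The proximal part was sparser than the other autosomes in every list, at 0.85, 0.82 and 0.81 times their density, and the distal part was denser, at 1.54, 1.78 and 1.80 times. With the border at the middle of the span, which was not chosen on the counts, the ratio was 1.77. The same ratio ranged from 0.51 to 1.79 on the other autosomes, with a median of 1.21, and only chromosome 7 exceeded chromosome 11.

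Peaks of the dense distal part ranked lower in their lists than those of the proximal part. Median score percentiles were 45.3, 46.5 and 46.6 in replicates 1, 2 and 3 from 50 Mb onwards, compared with 54.7, 54.6 and 56.1 before 50 Mb. The distal minus proximal difference was thus -9.36, -8.06 and -9.52 percentile points, below 0 in 3 of 3 lists. With the border at the middle of the span it was -3.63, -4.64 and -6.12 points, and its mean over lists ranked 3rd from the lowest among the 19 autosomes. Across complete 5 Mb bins the Spearman correlation between the number of peaks and their median percentile was -0.19, -0.09 and -0.45 in the 3 lists, which is weak and is given as a description. Members with all 3 lists made up 48.0% of the distal members (95% Wilson interval 42.7 to 53.2%) and 56.2% of the proximal ones (46.6 to 65.3%), so the intervals overlapped.

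At 1 Mb resolution the members filled most of the chromosome. Of 117 complete bins, 19 held no member (16.2%), and the median was 3. This was the lowest share of empty bins on any autosome, the others ranging from 18.4% on chromosome 10 to 39.7% on chromosome 12. Counting the peaks of each list alone, 20.5%, 15.4% and 14.5% of the bins were empty, and chromosome 11 ranked lowest in replicates 1 and 2 and 2nd lowest in replicate 3. The order depended on where bins begin: with bins shifted by 0.5 Mb, 17.8% were empty and 2 autosomes had fewer. Of the 19 empty bins, 15 lay below 50 Mb, and 16 held no peak of any list. The remaining 3 held 4 regions found in 1 list each.

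The fullest 1 Mb bin, from 79 to 80 Mb, had 14 members and 8, 14 and 18 peaks in replicates 1, 2 and 3. Next were the bins from 72 to 73 Mb and from 88 to 89 Mb with 12 members each, then 77 to 78 Mb with 10. A further 8 bins tied at 9 members, 1 of them below 50 Mb (from 4 to 5 Mb) and 7 beyond it. Full bins differed in how many of their members had all 3 lists. There were 8 of 12 from 88 to 89 Mb, 6 of 14 from 79 to 80 Mb, and 3 of 12 from 72 to 73 Mb. The bins from 86 to 87 Mb and from 102 to 103 Mb, named after their values were seen, had 9 members each, with 1 member in all 3 lists. Replicate 1 had 3 peaks and 1 peak there, whereas replicates 2 and 3 had 11 and 12 in the first bin, and 11 and 14 in the second. Without replicate 2 or without replicate 3, the fullest 1 Mb bin held 8 regions.

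The bin from 79 to 80 Mb shows how unequal neighbouring members were. Its strongest member, at chr11:79682525-79683024, scored 342.37, 403.56 and 710.58 in replicates 1, 2 and 3, at percentiles 93.1, 93.2 and 98.1. A second strong member, at chr11:79072175-79072674, scored 182.11, 473.71 and 579.27. It lay 3.56 kb from a weaker one at chr11:79068225-79068614, with scores of 112.05, 79.65 and 170.05. The remaining 11 members of the bin had mean percentiles between 14.1 and 55.8. Most of this bin thus consisted of sites of low or middling score beside a few strong ones.

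Long gaps took up part of the chromosome, but the longest was shorter than on most autosomes. At 5.43 Mb it ranked 16th of the 19, the others ranging from 4.37 to 9.54 Mb with a median of 7.21 Mb. Between neighbouring members there were 448 distances, and 23 of them exceeded 1 Mb. Together those 23 gaps covered 45.0 Mb, or 38.0% of the span. The longest ran from 32505625 to 37931214 (5.43 Mb) and held only 2 peaks, both of replicate 3, the higher at percentile 20.1. The next was 4.16 Mb long, from 12335425 to 16491524, with 1 peak of replicate 3. The third, from 90086725 to 93449214, measured 3.36 Mb and held 2 peaks each of replicates 2 and 3. The fourth and the fifth, from 8593075 to 11688574 (3.10 Mb) and from 23844175 to 26493774 (2.65 Mb), held no peak of any list. Of these 5 gaps, only the third lay beyond 50 Mb. The longest gap grew to 6.21 Mb when replicate 2 was left out, and likewise for replicate 3.

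Although members were denser than elsewhere, the median distance between them was not shorter, while in single lists its direction differed. The median distance between neighbours was 117.8 kb, against 112.6 kb on the other autosomes pooled, while the mean distance was shorter, at 263.5 kb against 358.0 kb. Between neighbouring peaks of a single list, the median distance was longer in replicate 1, at 229.7 kb against 196.7 kb. It was slightly shorter in replicate 2 (94.8 against 97.7 kb) and in replicate 3 (62 against 65.45 kb). Long distances were shorter and fewer on chromosome 11: the 90th percentile was 572 kb on chromosome 11 and 887 kb elsewhere, and 5.13% of the distances exceeded 1 Mb, against 8.68%. At the short end the 10th percentile was 8.20 kb on chromosome 11 and 8.32 kb elsewhere, whereas the 25th percentile was longer on chromosome 11, at 38.0 kb against 31.8 kb. The median reached 0.447 of the mean, the highest ratio of the 19 autosomes, where the others ranged from 0.235 to 0.398. Within the single lists this ratio was 0.531, 0.419 and 0.383, ranking 1st in replicate 1 and 2nd in replicates 2 and 3. It ranked 2nd when replicate 2 or replicate 3 was left out and when a region had to be in all 3 lists.

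**Figure D3:**
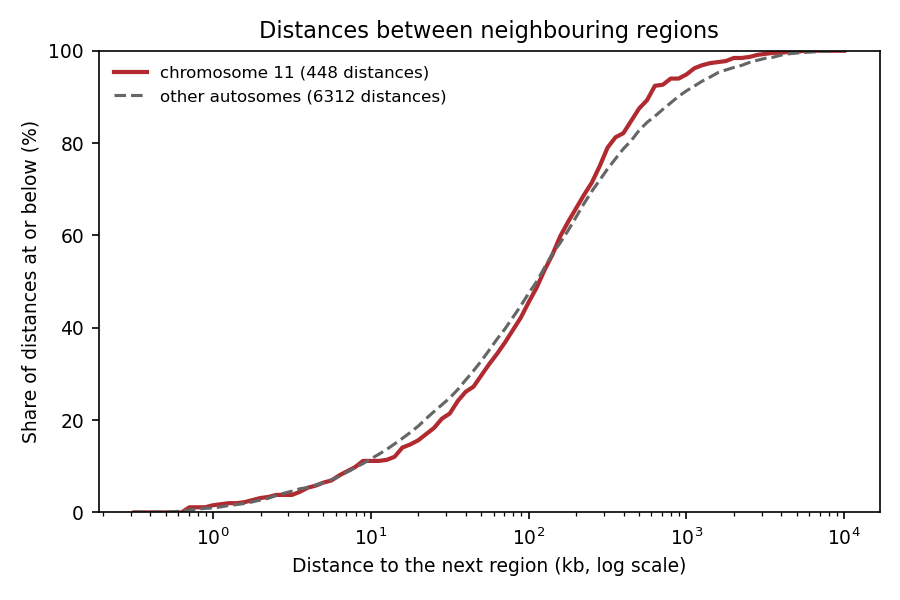
Share of distances between neighbouring regions (y axis, %) at or below a given distance (x axis, kb, log scale) on chromosome 11 (red) and on the other autosomes pooled (grey dashes). The red curve lies below the grey one at the 25th percentile (38.0 against 31.8 kb) and at the median (117.8 against 112.6 kb), and above it at long distances, with 5.13% of distances above 1 Mb against 8.68%.

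Close clusters were small. Of the 449 members, 98 (21.8%, 95% Wilson interval 18.3 to 25.9%) had another member within 10 kb, and the share on the other autosomes was 20.7%. With replicate 2 left out, and so fewer regions, it was 13.5%, and with replicate 3 left out it was 12.8%. Linking members within 10 kb gave 46 pairs and 2 triplets, with no chain of 4 or more, and 351 members stood alone. Members near another one resembled those standing alone, with all 3 lists in 48.0% (38.3 to 57.7%) against 50.4% (45.2 to 55.6%), median mean percentiles of 53.4 and 53.3, and a median width of 400 bp in both.

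The 2 triplets were named after their values were seen. The tighter one spanned 6.70 kb, from 4196675 to 4203374. Its first member had scores of 173.03 and 318.34 in replicates 2 and 3, its second had 92.94 and 138.79 in replicates 1 and 3, and the last had 126.41 and 98.73 in replicates 2 and 3. No member of that triplet was in all 3 lists. The other spanned 18.4 kb, from 103155375 to 103173774. Its middle member, at chr11:103164425-103164874, scored 185.01, 248.9 and 353.01 in replicates 1, 2 and 3. The flanking ones were missing from replicate 1 and scored between 80.55 and 123.7 in the other lists. The shortest distance between members was 650 bp, and 7 distances were 1 kb or shorter.

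The strongest member was chr11:76123415-76123874, 460 bp wide, which scored 718.02, 943.28 and 1105.37 in replicates 1, 2 and 3. These scores stood at percentiles 99.3, 99.3 and 99.5 of those lists. Among the 3591 regions of the genome with all 3 lists it ranked 33rd by mean percentile, and the best regions of 11 other autosomes ranked above it. The top chromosome 11 peak of each list ranked 31st, 32nd and 28th in its list. A region at chr11:87974565-87975074 came next, with scores of 671.92, 948.77 and 1041.04. Both stood beyond 50 Mb.

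Another pair of strong members, the third and the fourth, lay 71.9 kb apart. The one at chr11:104150575-104151074 scored 729.63, 1062.73 and 823.69, the highest on this chromosome in replicates 1 and 2. Its neighbour at chr11:104222975-104223514 scored 610.84, 907.15 and 1218.26, the highest in replicate 3. The lists thus disagreed on which of the pair was the stronger. The fifth, at chr11:119837075-119837624, scored 629.25, 829.97 and 1137.86. The sixth, at chr11:78966275-78966774, scored 587.07, 1054.68 and 926.97, and was among the 3 of the 12 strongest members that scored higher in replicate 2 than in replicate 3. The seventh and eighth were chr11:97147365-97147874 (680.49, 745.91 and 960.38) and chr11:68259375-68259874 (558.53, 774.62 and 1120.31).

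The remaining 4 of the 12 strongest were chr11:70011925-70012474, chr11:77976065-77976624, chr11:45580565-45581024 and chr11:90086275-90086724. Replicate 1 scored them between 416.27 and 521.88, replicate 2 between 583.98 and 852.47, and replicate 3 between 707.66 and 815.29. Only chr11:45580565-45581024 lay below 50 Mb, so that 11 of the 12 strongest members stood in the distal part. That part held 344 of the 449 members, and 165 of the 224 with all 3 lists, from which the 12 were taken. The last of the 12 is the left border of the 3.36 Mb gap described above. All 12 were between 450 and 560 bp wide, and their mean percentiles ran from 97.6 to 99.4. Chromosome 11 held 8 of the 100 strongest regions with all 3 lists (8%, 95% Wilson interval 4.11 to 15.0%), against 6.24% of all such regions.

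**Figure D4:**
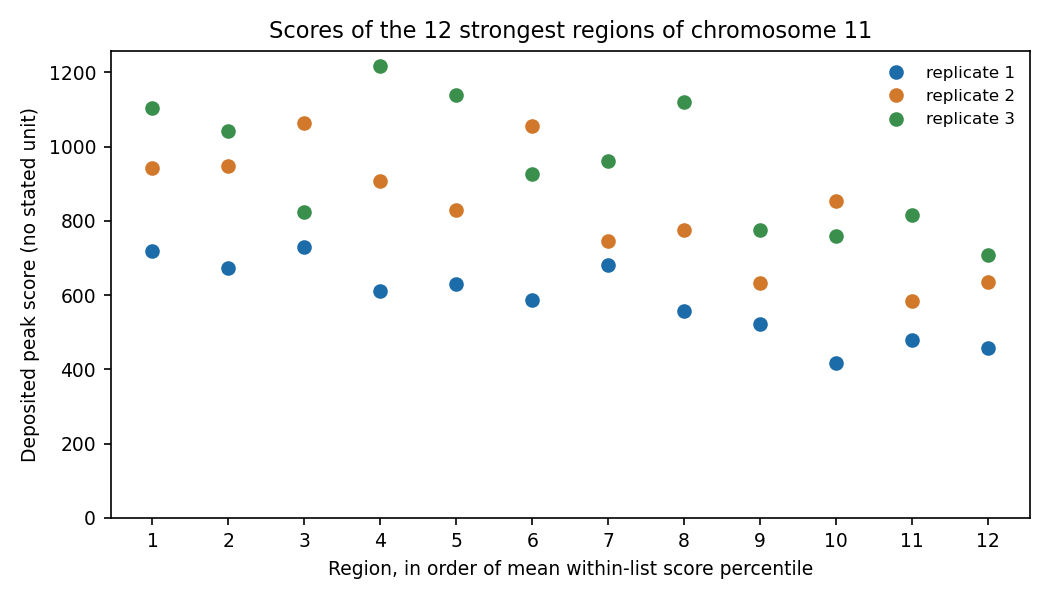
Deposited scores (y axis, no stated unit) of the 12 strongest members, in order of mean within-list percentile, with 1 point per replicate list. Replicate 1 gives the lowest score for each of the 12, and scores run from 416.27 to 729.63 there and from 707.66 to 1218.26 in replicate 3.

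Support on chromosome 11 was slightly below that on the other autosomes pooled for most measures, and within the counting error. By the share of regions with at least 2 lists it ranked 18th of the 19 autosomes, and by the share of members with all 3 lists 15th. Among members, 224 had peaks in all 3 lists (49.9%, 95% Wilson interval 45.3 to 54.5%), against 52.6% on the other autosomes. A further 188 members were in replicates 2 and 3 only, 27 in replicates 1 and 3, and 10 in replicates 1 and 2. These were 41.9%, 6.01% and 2.23% of members, against 38.3%, 6.49% and 2.56% on the other autosomes. Without replicate 1, 412 regions were shared by the remaining lists. The number fell to 251 without replicate 2 and 234 without replicate 3. Of the chromosome 11 regions outside the threshold, 292 were in replicate 3 alone, 101 in replicate 2 alone and 13 in replicate 1 alone. These were 34.2%, 11.8% and 1.52% of all its regions, against 32.5%, 10.6% and 2.06% on the other autosomes.

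Of the replicate 1 peaks on chromosome 11, 85.4% overlapped a replicate 2 peak and 91.6% a replicate 3 peak, compared with 84.2% and 90.3% on the other autosomes. In the opposite direction, 44.7% of replicate 2 peaks and 34.3% of replicate 3 peaks were found in replicate 1, compared with 48.8% and 37.7%. Between replicates 2 and 3 the shares were 78.8% and 56.4%, against 80.6% and 58.0%. Chromosome 11 thus lay above the other autosomes for the shares of replicate 1 peaks and below them for the other 4, with differences between -4.09 and 1.29 percentage points. It ranked 6th and 7th of the 19 autosomes for the first pair of shares, and 15th to 18th for the other 4. In all 6 comparisons the value of the other autosomes fell inside the 95% Wilson interval of chromosome 11. These intervals cover counting error over peaks only. With a reciprocal overlap of 50%, the mean difference over the 6 shares went from -1.40 to 0.0097 percentage points.

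**Figure D5:**
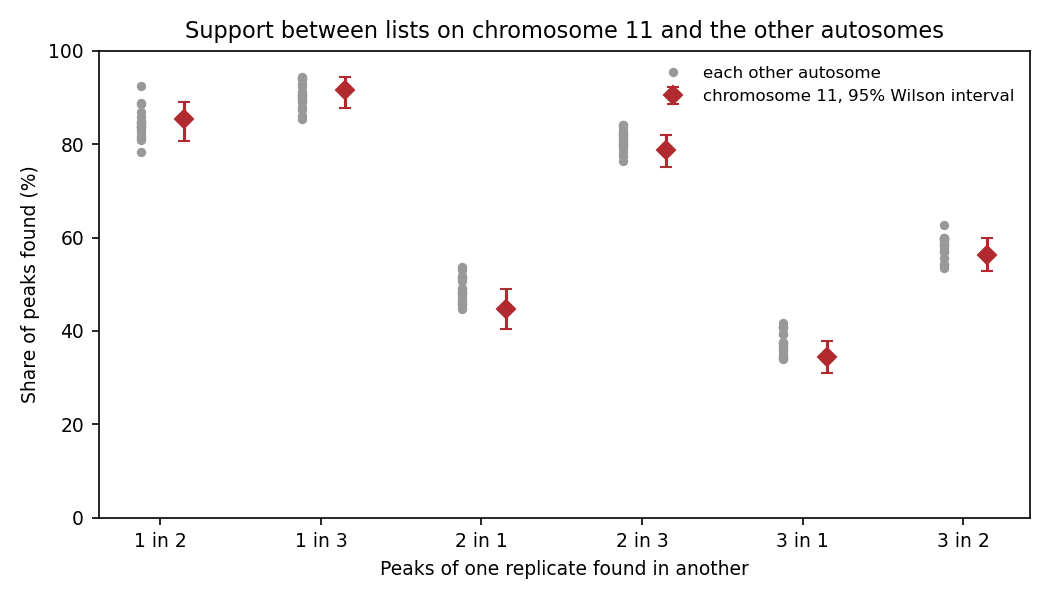
Share of the peaks of one list that overlap a peak of another (y axis, %), for the 6 ordered pairs of replicates. Red diamonds with 95% Wilson intervals are chromosome 11 and grey points are the other 18 autosomes. The red intervals overlap the range of the grey points in each pair. For the 4 shares of replicate 2 and replicate 3 peaks, the diamonds rank 15th to 18th of the 19 autosomes.

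Peaks on chromosome 11 ranked slightly lower in their lists than peaks of the other autosomes. Their median percentiles were 47.9, 48.1 and 48.3 in replicates 1, 2 and 3, against 50.5, 50.2 and 50.2. The difference was -2.22 ± 0.35 points (SD, n = 3), below 0 in 3 of 3 lists, with p = 0.25 in the two-sided exact sign-flip permutation test. Chromosome 11 ranked 13th, 13th and 14th of the 19 autosomes by this median, so several autosomes stood lower. Support followed the score on chromosome 11 as elsewhere. Among replicate 3 peaks above percentile 75, 81.7% of the chromosome 11 peaks were found in replicate 1 and 93.1% in replicate 2, against 6.52% and 21.2% up to percentile 25. On the other autosomes these shares were 85.3%, 95.1%, 7.65% and 23.9%.

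The regions just inside and just outside the threshold on replicates overlapped in score. Members in exactly 2 lists had a median mean percentile of 41.4, with values from 2.89 to 83.3, and regions in 1 list had a median of 25.7, with values up to 94.8. Members in all 3 lists had a median of 66.6, from 11.6 to 99.4. The strongest members in exactly 2 lists were all missing from replicate 1: chr11:117157575-117158024 scored 196.9 and 368.1 in replicates 2 and 3, chr11:53842175-53842374 scored 208.92 and 281.46, and chr11:102505225-102505624 scored 241.72 and 227.18. Of the 406 regions in a single list, 10 lay above percentile 75, all of them among the 292 of replicate 3. Replicates 1 and 2 had only 13 and 101 such regions. The share above percentile 75 on the other autosomes is not given here.

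The strongest region found in replicate 3 alone, at chr11:70470225-70470474, scored 481.98, at percentile 94.8. It lay 640 bp from the member at chr11:70471115-70471514, which ranked 16th on the chromosome with scores of 344.37, 967.39 and 665.34 in replicates 1, 2 and 3. Replicates 1 and 2 therefore had a strong peak beside it but none at it. The strongest regions found in the other lists alone were weaker, with 158.39 at chr11:115162875-115163274 in replicate 2 and 108.62 at chr11:110742265-110742614 in replicate 1.

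Members with all 3 lists varied in rank between the lists. The range of a member's 3 percentiles had a median of 21.9 points and reached 78.1. In 28 of the 224 (12.5%) the peak lay above percentile 90 in each list, against 10.7% on the other autosomes. The deposited score, which may not share a scale between lists, was highest in replicate 3 for 163 of them, in replicate 2 for 51 and in replicate 1 for 10. No such count is given here for the other autosomes. Median scores of the whole lists also rose, from 114.84 in replicate 1 to 121.12 in replicate 2 and 125.74 in replicate 3. Spearman's rho of the scores of shared peaks was 0.73 between replicates 1 and 2, 0.72 between 1 and 3, and 0.77 between 2 and 3, over 234, 251 and 412 regions that are not independent replicates.

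The peaks of a member were joined because they overlapped or abutted, and most peak starts of a list stood on a 50 bp grid. Their small offsets are thus a description, limited by the rule and the grid. Peak centres differed by a median of 35 bp between replicates 1 and 2, 35 bp between 1 and 3, and 25 bp between 2 and 3, and by 250 bp at most. Every member had at most 1 peak of each list. Members were 190 to 800 bp wide, with a median of 400 bp, equal to that of the other autosomes, and covered 173.2 kb in all, or 0.146% of the span. The widest, at chr11:30304975-30305774, joined peaks of 600, 650 and 650 bp with scores of 360.12, 869.52 and 990.98. The next 2 in width, at chr11:70002975-70003624 and chr11:115816425-115817074, measured 650 bp each. The latter scored only 95.74 in replicate 1, against 287.55 and 375.62 in replicates 2 and 3.

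The authors' merged list cut these members into smaller pieces. It held 853 intervals on chromosome 11, all of them inside members and identical to the segments covered by 2 or 3 lists, and each member had at least 1 interval and at most 3. Of these, 262 (30.7%) were shorter than 50 bp. The part of a member covered by at least 2 lists had a median length of 300 bp, a median of 80% of its width.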

How the data were processed

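Anti-HA ChIP-seq peaks of doxycycline-induced HA-NUR77 C2C12 cells were analysed in 3 replicates of 1 group. The authors deposited 1 peak list per replicate, with coordinates and a score per peak. Per the file contents, peaks are named after MACS, a peak caller; per the submitters' processing notes, coordinates are in mm9. Its version, settings and control and the read depth were not given in these sources. The lowest deposited scores were 70.01 to 70.02. All widths on chromosome 11 in replicate 1, and 98.5% or more in replicates 2 and 3, were multiples of 50 bp, which limits the resolution of borders. The authors also deposited a merged list of coordinates without values.

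Overlapping or abutting peaks were joined into regions with Python 3.11.15, NumPy 2.4.6, pandas 2.3.3 and SciPy 1.17.1. The counts on chromosome 11 (855 regions, 449 members, 224 with all 3 lists) were the same with bedtools 2.31.1, and the code was tested on simulated lists. A peak was found in another list if it overlapped a peak there by at least 1 bp. Regions were placed in bins by their midpoint. Densities are per Mb between the first and the last peak of a chromosome, without leaving out assembly gaps. Percentiles rank the score within a whole list. Chromosome X was left out of the comparisons with the other autosomes. It was counted in the list totals, the percentiles, the length summed over all chromosomes, the 6865 regions and the 3591 regions with all 3 lists.

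Regions named were the 12 strongest with all 3 lists, the 3 strongest with exactly 2, the strongest of each single list, the 3 fullest 5 Mb and 5 fullest 1 Mb bins (8 bins tied for the last place), chains of 4 or more, the 5 longest gaps and the 3 widest members. The members of the bin from 79 to 80 Mb, the triplets and a few bins were named after their values were seen. The members and measures were chosen with earlier results of these data known. A search for NBRE and YY1 motifs and the naming of nearest genes were not run, since no mm9 sequence or annotation was used here.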

Additional observations from a re-analysis of the deposited data

How the results depend on the processing

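Of 80 alternative values over 13 results, 44 were counted as the same, 35 moved and 1 reversed. Those counted as the same stayed within the spread between lists, the 95% interval or 1.5 times the count. Differences in median percentile had only to keep their direction. The distal minus proximal one was counted as the same at -4.80 points with the border at the middle of the span, against -8.98 points. The reversed value is the mean difference in shared peaks between chromosome 11 and the other autosomes, 0.0097 percentage points with a reciprocal overlap of 50% against -1.40. The relative density of chromosome 11 stayed above 1 in all 10 alternatives, from 1.28 to 1.42. The following alternatives count fewer regions by construction; why the shares and ratios moved with them was not tested. With peaks above their list's median score, equal numbers of best peaks and regions with all 3 replicates, in this order, chromosome 11 had 222, 256 and 224 regions, 10.8%, 12.5% and 13.4% of them within 10 kb of another, at most 17, 21 and 19 in a 5 Mb bin and 6, 7 and 8 in a 1 Mb bin, and a ratio of distal to proximal density of 1.65, 1.77 and 1.83. That ratio was 1.77 with the border at the middle of the span. With equal numbers of best peaks, 66.4% of regions had all 3 replicates; among regions with all 3, the longest gap was 6.54 Mb and 25.6% of 1 Mb bins were empty. The share within a near distance of 5, 20 and 50 kb was 12.7%, 29.4% and 49.2%. Leaving out 1 replicate at a time gave 234 to 412 regions, 12.8 to 21.6% within 10 kb, a longest gap of 5.43 to 6.21 Mb, at most 20 to 37 regions in a 5 Mb bin and 8 to 12 in a 1 Mb bin, a distal ratio of 1.76 to 2.21, and 18.8 to 24.8% empty bins. The removal of the fullest bins, the border at 50 Mb with its alternatives, and the results on empty bins and on the ratio of median to mean distance, with their alternatives, were chosen after seeing the data. No paired analysis was possible because the series has 1 group. The unknown read depth limits how the lengths of the lists can be compared.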

Other observations

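The peak names in each list end in a running number, and some numbers are missing on chromosome 11. Replicate 1 lacked 17 of the 291 numbers spanned there, replicate 2 lacked 16 of 539, and replicate 3 lacked 38 of 769. Peaks may thus have been removed between calling and deposit, which was not tested. Missing numbers were not counted on the other chromosomes, so they may not be particular to chromosome 11. Along the chromosome, peak starts in each list stood on a grid: the 274, 519 and 720 peaks whose width was a multiple of 50 bp began at 1 common offset within 50 bp in their list.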
